A study of Mus musculus with 3 samples.

Results

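The tumour necrosis factor (TNF) superfamily genes examined here are 46 genes with a row in the deposited mouse gene tables, out of 55536 genes in all. They were chosen by name from GENCODE annotation M21, whatever their level: 23 receptors, 17 ligands and the 6 TNF receptor-associated factors (TRAFs) that carry the receptors' signals. The cells were regulatory T cells (Tregs) that had been through inflammation, taken as primary cells from mouse material of 12 weeks of age. There was 1 group of 3 libraries, which the labels call technical replicates of 1 biological replicate from 1 donor. Polyadenylated RNA was sequenced. The labels used here name no genotype, strain, inflammatory agent or sort, and sex was not collected. The design therefore holds no contrast between conditions, and the comparisons are between genes within the libraries and between the libraries. Spread over the 3 libraries is taken as technical because of these labels, which do not say whether the libraries share 1 RNA extraction. It says nothing about variation between mice.

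TNF superfamily ligands are mostly membrane proteins that act as trimers on receptors of neighbouring cells. The receptors fall into those whose tails bind TRAF adaptors, which lead to NF-kB and kinase signalling, and those with a death domain, which can also recruit the caspase machinery. In Tregs several TRAF-binding receptors, among them OX40, GITR, CD137 and TNFR2, are known as costimulatory receptors that support expansion and survival of the cells.

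Expected counts over genes (estimated numbers of reads, in which a read that fits several genes is divided between them) came to 35592206, 31611422 and 37728241 in libraries 1, 2 and 3. The 46 genes took 0.568%, 0.525% and 0.544% of them. All 7 Treg markers on a list (Foxp3, Il2ra, Ctla4, Ikzf2, Cd4, Cd3e and Izumo1r) were detected, and Foxp3, the transcription factor that defines Tregs, stood at 97.6 ± 1.04 TPM (SD, n = 3 libraries). TPM is transcript abundance corrected for gene length and scaled to 1 fixed sum per library. Library 3 stood apart: 5 salivary gland genes took 3.16% of its counts, against 0.000283% and 0.000676% in libraries 1 and 2. The counts of genes detected, of pairs apart and of genes that differed between libraries were also made without each library.

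Of the 46 genes, 34 (73.9%) were detected, that is, had 1 TPM or more in each library. The same held for 23.2% of all genes and 47.6% of protein-coding genes. The median of mean TPM was 18.7 over the 46 genes, 1.04 over protein-coding genes and 0.11 over all genes. By role, 17 of 23 receptors, 11 of 17 ligands and 6 of 6 TRAFs were detected. A mean of at least 100 TPM was reached by 10 of the 46 genes (21.7%), against 8.35% of protein-coding genes: Tnfrsf4, Tnfrsf18, Cd27, Tnfrsf1b, Tnfrsf9, Tnfrsf25, Ltb, Lta, Traf1 and Traf5. In bulk RNA, fewer cells of a type and less RNA per cell cannot be told apart, so a low level here may be a low level in every cell or a transcript of a few cells.

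**Figure D1:**
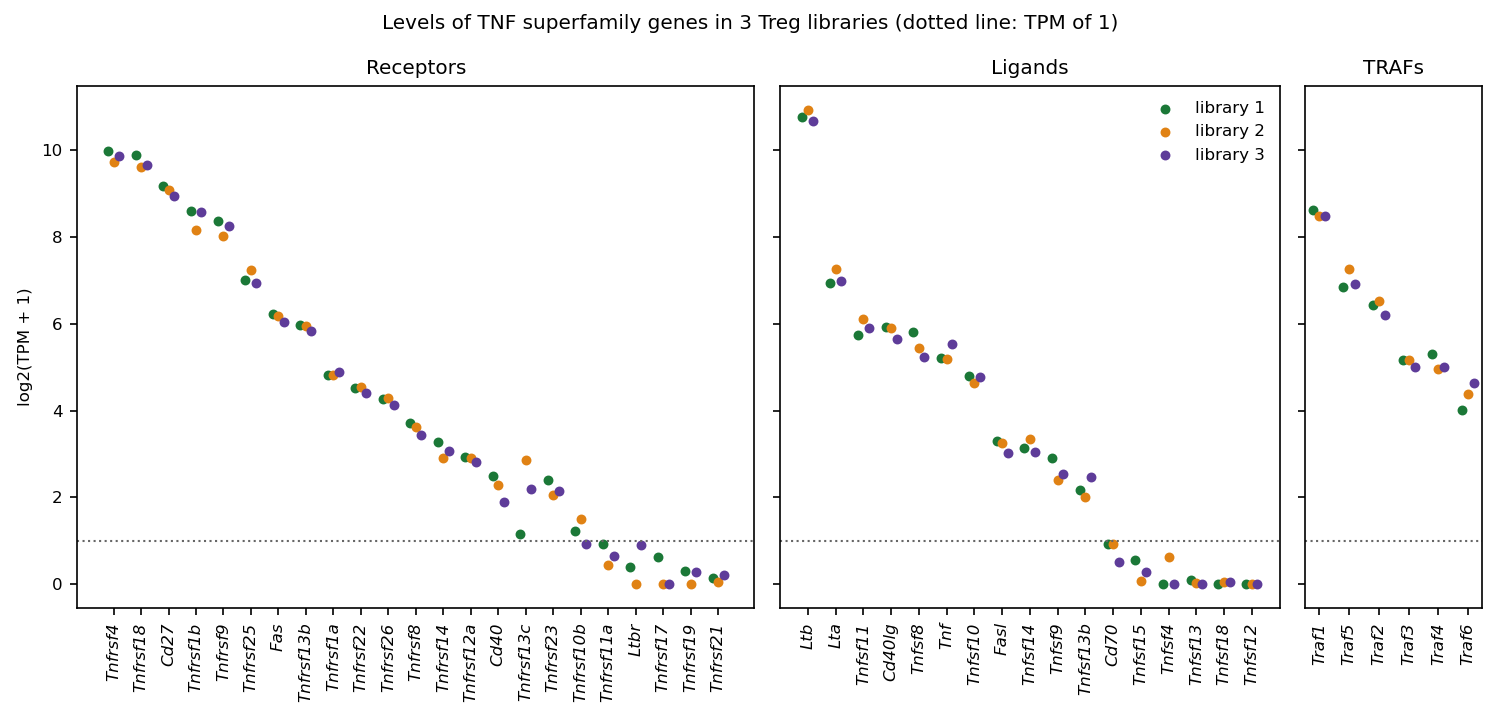
Level of each of the 46 genes as log2(TPM + 1), on the vertical axis, with 1 point per library and the genes ordered by mean TPM within receptors, ligands and TRAFs; the dotted line marks a TPM of 1. Receptors span from 931 TPM for Tnfrsf4 to 0.0933 TPM for Tnfrsf21, Ltb stands above all other genes shown at 1783 TPM, and 12 genes have at least 1 library under the line.

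Several of these genes are known targets of NF-kB and AP-1, factors that their own signalling can switch on, so the letters of their promoters were described. RefSeq promoter windows of 300 bases (250 before the annotated start and 50 after it, assembly GRCm38.p6) were matched by symbol for 37 of the 46 genes, in 41 windows. On both strands, letters fitting the kappaB consensus of NF-kB were found in 5 member windows (12.2%), against 5.80% of the 32851 windows in the table. These were windows of Ltb, Tnfrsf9, Tnfrsf25, Tnfrsf8 and Traf3. The AP-1 letters TGANTCA were found in 7 member windows of 6 genes (17.1%), against 7.81% of all windows: Fas, Tnfrsf8, Tnfrsf9, Tnfsf13, Tnfsf13b and Tnfsf14. The letters of both factors stood together in 2 member windows, one of Tnfrsf9 and one of Tnfrsf8, against 0.39% of all windows. A match is a description of letters and not a measured binding site.

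The sequences below are shown because they hold the contrast inside Tnfrsf9, whose transcripts begin at a pair of annotated starts with different letters before them, and the kappaB letters before Ltb, the most abundant of the 46 genes. Each reads 5′ to 3′ on the strand of its gene, and capitals mark letters that fit kappaB or AP-1.
Tnfrsf9, before the upstream start, chr4:150919905-150920154, plus strand: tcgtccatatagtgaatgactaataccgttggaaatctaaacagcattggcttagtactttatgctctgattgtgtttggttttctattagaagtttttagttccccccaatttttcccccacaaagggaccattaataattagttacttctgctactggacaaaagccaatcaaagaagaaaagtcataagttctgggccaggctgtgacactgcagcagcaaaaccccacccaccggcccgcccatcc
Tnfrsf9, kappaB letters before the downstream start, chr4:150927949-150927973, plus strand: agcagctGGGGATTTCCCaggaggc
Tnfrsf9, AP-1 letters before the downstream start, chr4:150927977-150927997, plus strand: gctcagtTGAGTCAcaggtcc
Ltb, chr17:35194257-35194438, plus strand: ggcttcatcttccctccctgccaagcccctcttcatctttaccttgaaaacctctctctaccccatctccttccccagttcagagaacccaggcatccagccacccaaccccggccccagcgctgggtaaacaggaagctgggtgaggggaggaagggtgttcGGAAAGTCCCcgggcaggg
Tnfrsf8, chr4:145315165-145315414, minus strand: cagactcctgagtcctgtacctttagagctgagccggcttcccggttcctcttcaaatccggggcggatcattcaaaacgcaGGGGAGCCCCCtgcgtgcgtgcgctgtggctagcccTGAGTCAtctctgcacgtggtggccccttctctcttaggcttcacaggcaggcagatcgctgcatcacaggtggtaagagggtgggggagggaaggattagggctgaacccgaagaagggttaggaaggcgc

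Tnfrsf9 encodes CD137, a costimulatory receptor of activated T cells, and lies on chr4:150914562-150946102 of mm10 on the plus strand. Transcripts from the upstream start (base 150920155, or within 50 bases of it) took 38.5%, 35.1% and 51.4% of its TPM in libraries 1, 2 and 3, with a mean of 41.7% ± 8.59. Those from the downstream start (base 150927999) took 58.5%, 61.5% and 45.9%, with a mean of 55.3% ± 8.31. The downstream start thus led in libraries 1 and 2, and the upstream start led in library 3, so the order did not hold over the libraries. The shift in library 3 sat on the transcript Tnfrsf9-201, which took 13.0% there and 0.33% and 0.07% in the others. The coding transcripts from both starts are annotated with the same start codon, at base 150929846, so these starts differ in the untranslated leader. The window before the upstream start held neither kappaB nor AP-1 letters. In the downstream window the kappaB letters lay from 43 to 34 and, overlapping, from 42 to 33 bases before the start, and the AP-1 letters from 15 to 9 bases before it. These shares are the authors' model estimates from short reads, and no test was made of them.

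**Figure D2:**
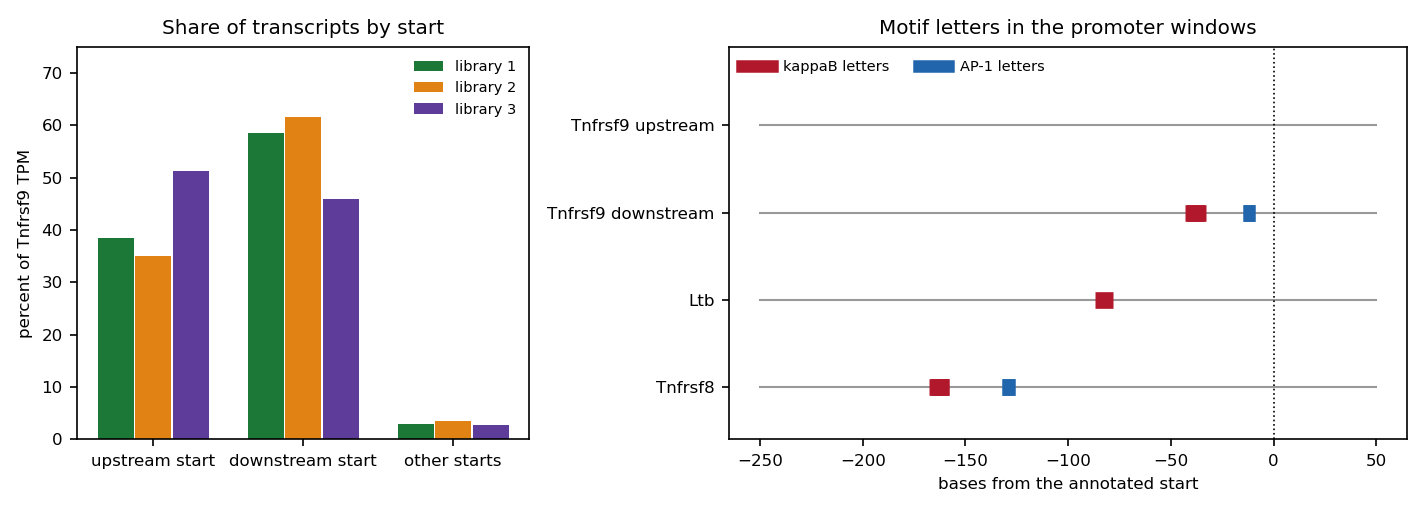
Left, the percent of Tnfrsf9 TPM from transcripts of the upstream start, the downstream start and all other starts, as 1 bar per library; right, the place of kappaB and AP-1 letters in 4 promoter windows, in bases from the annotated start (dotted line). The downstream start has 58.5%, 61.5% and 45.9% of Tnfrsf9 TPM in libraries 1 to 3 and has both kinds of letters before it, while the upstream window has neither.

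Ltb, which encodes lymphotoxin beta, also has transcripts from a pair of starts, and the kappaB letters at bases 35194420 to 35194429 of chromosome 17 lie before both. Ltb-201 starts at base 35194439 and took 41.9% ± 0.999 of Ltb TPM. Ltb-203 starts at base 35194626 and took 55.0% ± 0.595, with its annotated start codon at base 35195251, downstream of that of Ltb-201 at base 35194522. These shares moved little between libraries. Tnfrsf8 (CD30) held the letters of both factors, as Tnfrsf9 did. Its level was 11.1 ± 1.10 TPM, against 299 ± 36.8 TPM for Tnfrsf9 and 1783 ± 162.5 TPM for Ltb. Any link between the letters and the levels was not tested.

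Among receptors, a group labelled here as TRAF-binding carried most of the RNA. Receptors with a death domain, those for BAFF and APRIL, the decoys with their neighbour, and Tnfrsf19 were grouped apart, whatever their tails bind. The 11 genes of the TRAF-binding group summed to 2994 ± 268 TPM, and 9 of the 11 were detected. All 23 receptors summed to 3334 ± 260 TPM. The 5 receptors of highest level, all TRAF-binding, took 88.9% of the receptor sum. Tnfrsf4 encodes OX40 and stood at 1010.2, 855 and 928 TPM in libraries 1, 2 and 3. Tnfrsf18 encodes GITR, a receptor long used to mark Tregs, and stood at 945, 786 and 810.4 TPM. The ranges of these leading receptors over the libraries overlapped, so their order was not resolved, and both were lowest in library 2. An antisense gene, Gm16008, overlaps Tnfrsf18 with 219 to 338 counts, and part of the Tnfrsf18 counts was shared out between genes by the model.

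Cd27, the receptor for the ligand Cd70 on resting and memory T cells, stood at 577, 542 and 490.5 TPM, under Tnfrsf18 in every library. Tnfrsf1b encodes TNFR2, the TNF receptor of lymphocytes, and stood at 387, 285 and 381 TPM. Tnfrsf9 stood at 332, 259 and 307 TPM. The range of Cd27 lay above those of Tnfrsf1b and Tnfrsf9, which overlapped each other. Both Tnfrsf1b and Tnfrsf9 were lowest in library 2.

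The other receptors of the TRAF-binding group had means of at most 11.1 TPM. Tnfrsf8, Tnfrsf14 (HVEM, a receptor for LIGHT and lymphotoxin alpha, 7.51 ± 1.05 TPM), Tnfrsf12a (Fn14, the TWEAK receptor, 6.36 ± 0.264 TPM) and Cd40 (best known on B cells and antigen-presenting cells, 3.73 ± 0.959 TPM) were detected. Tnfrsf11a encodes RANK, a receptor of osteoclast precursors and dendritic cells, and stood at 0.89, 0.36 and 0.56 TPM. Ltbr encodes the lymphotoxin beta receptor, typical of stromal and myeloid cells, and had 12, 0 and 43 counts. Neither of these was detected.

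Of the 5 death domain receptors, 3 were detected and Tnfrsf25 led. Tnfrsf25 encodes DR3, a costimulatory receptor of T cells, and stood at 127.5, 151 and 123 TPM. Fas, the death receptor for Fas ligand, stood at 74.2, 72.0 and 64.8 TPM. Tnfrsf1a encodes TNFR1, the broadly expressed TNF receptor, and stood at 27.4, 27.1 and 28.5 TPM. These 3 ranges did not overlap, and Tnfrsf25 was the only death domain receptor above 100 TPM. Tnfrsf10b, the mouse TRAIL death receptor, was at 0.89 to 1.81 TPM, and Tnfrsf21 (DR6) had 2 to 10 counts.

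Receptors for BAFF and APRIL, ligands that sustain B cells and plasma cells, differed widely. Tnfrsf13b encodes TACI and stood at 61.7, 60.8 and 56.1 TPM. Tnfrsf13c encodes the BAFF receptor and stood at 1.21, 6.27 and 3.58 TPM. Tnfrsf17 encodes BCMA, a plasma cell receptor, and had 9 counts in library 1 and 0 in libraries 2 and 3, which allows up to 0.202 TPM (3 counts in a library). TACI transcripts thus made up 93.9% of the sum of the 3 receptors. On a list of 10 B cell markers, 6 were detected, with a summed level of 80.2, 85.1 and 72.1 TPM, and their part in the level of Tnfrsf13b was not tested.

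The remaining receptors were low. Tnfrsf22 and Tnfrsf23, decoy receptors for TRAIL, stood at 21.6 ± 1.11 and 3.64 ± 0.602 TPM, and Tnfrsf26, their neighbour, at 17.8 ± 1.15 TPM. The antisense gene E230032D23Rik overlaps all 3 of these genes with 113 to 236 counts, and reads were shared between related genes, so their split is uncertain. Protein-coding transcripts took only 9.1%, 0% and 14.1% of Tnfrsf23 TPM in libraries 1, 2 and 3. Most of its TPM lay in transcripts annotated as a retained intron or for nonsense-mediated decay. Tnfrsf19 (TROY) had 21, 0 and 16 counts. In the order of the receptors, neighbours whose ranges overlapped were Tnfrsf4 and Tnfrsf18, Tnfrsf1b and Tnfrsf9, Tnfrsf14 and Tnfrsf12a, then Cd40, Tnfrsf13c and Tnfrsf23, and all those from Tnfrsf10b down.

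Among ligands, 1 gene dominated. Ltb stood at 1747, 1961 and 1642 TPM and took 82.2% of the ligand sum of 2168 ± 183 TPM. Lta, which encodes lymphotoxin alpha, the partner that forms a membrane complex with lymphotoxin beta, stood at 122, 152 and 126 TPM. Both were highest in library 2, and their ranges were far apart.

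A group of 4 ligands followed between 35.6 and 67.8 TPM. Tnfsf11 encodes RANK ligand and stood at 52.6, 67.8 and 58.7 TPM. Cd40lg encodes CD40 ligand, the helper T cell signal to B cells, and stood at 60.2, 59.0 and 49.1 TPM. Tnfsf8 encodes CD30 ligand and stood at 54.8, 42.7 and 36.9 TPM. Each of these overlapped its neighbour in the order of levels. Tnf, the founding cytokine of the family, stood at 36.4, 35.6 and 45.5 TPM and overlapped Tnfsf8.

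Ligands of cell death were lower: Tnfsf10, which encodes TRAIL, stood at 25.7 ± 1.52 TPM and Fasl, which encodes Fas ligand, at 8.14 ± 0.906 TPM. Tnfsf14 encodes LIGHT and stood at 8.08 ± 1.02 TPM, overlapping Fasl. Tnfsf9, the ligand of CD137, stood at 5.15 ± 1.15 TPM, and Tnfsf13b, which encodes BAFF, at 3.67 ± 0.771 TPM. Protein-coding transcripts took only 36.8% ± 2.99 of Tnfsf13b TPM, and the pairs below set all its transcripts against the receptors. These lower ligands are all among the 11 that were detected.

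The 6 ligands that were not detected include those of the receptors at the top of the order. Cd70 had 16, 14 and 8 counts. Tnfsf4, the ligand of OX40, had 0, 19 and 0 counts. Tnfsf18, the ligand of GITR, had 0, 1 and 2 counts. These ligands are best known on antigen-presenting cells, and on a list of 7 myeloid markers none was detected, with sums of 3.45, 4.50 and 7.92 TPM and Cd14 at 0 counts in all 3 libraries. On a list of 6 dendritic cell markers 1 was detected, with sums of 7.93, 4.38 and 2.64 TPM. On the list of 10 B cell markers 6 were detected, with sums of 80.2, 85.1 and 72.1 TPM. The part of such cells in the levels of these ligands was not tested. Tnfsf15, which encodes TL1A, the ligand of DR3, had 34, 3 and 17 counts. Tnfsf13 (APRIL) had at most 2 counts, and Tnfsf12 (TWEAK) had 0 counts in all 3 libraries. By counting error alone, 0 counts allow up to 0.185 TPM for Tnfsf12, and the authors' upper bounds were higher, at 0.488, 0.544 and 0.444 TPM. On chromosome 11 the annotated read-through gene Tnfsfm13 overlaps both Tnfsf12 and Tnfsf13 on their strand, so reads could be split between them.

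Receptors were set against their own ligands in 27 pairs, covering 20 receptors and all 17 ligands, to ask which side of each pair these cells transcribe. The sides of a pair count as apart when log2(TPM + 1) differed with 1 sign in all libraries, the TPM ranges were separate, and the authors' bounds around their posterior mean TPM were separate in every library. By this rule 23 pairs were apart: the receptor was higher in 11 and the ligand in 12. With 3 libraries, a two-sided exact permutation test that flips signs cannot go below p = 0.25 (0.281 after Benjamini-Hochberg adjustment over the pairs), so no pair could pass a threshold of 0.05. In 14 pairs both genes were detected, in 6 the receptor alone, in 6 the ligand alone and in 1 neither.

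Pairs of costimulatory receptors were among the 11 in which the receptor was higher. Tnfrsf4 exceeded Tnfsf4 by 9.65 ± 0.47 on the log2(TPM + 1) scale, and Tnfrsf18 exceeded Tnfsf18 by 9.69 ± 0.17. With the ligand near 0 TPM the pseudocount sets the size: at 0.1 these differences were 12.28 and 12.76. Cd27 exceeded Cd70 by 8.28 ± 0.15, a ratio of mean TPM of 718. Tnfrsf25 exceeded Tnfsf15 by 6.77 ± 0.37. In each of these pairs the receptor was above 100 TPM and the ligand under 1 TPM in all 3 libraries. Tnfrsf9 exceeded Tnfsf9 by 5.62 ± 0.13, a ratio of 58.1, with both genes detected.

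The receptor was also higher in pairs of the death, TNF, TACI and TWEAK receptors. Fas exceeded Fasl by 2.97 ± 0.05, a ratio of 8.64. Tnfrsf1b exceeded Tnf by 3.13 ± 0.22, a ratio of 8.97, and exceeded Lta by 1.38 ± 0.41, a ratio of 2.63. The excess over Lta ranged from 0.90 in library 2 to 1.65 in library 1. The pair was not apart in a further set of deposited counts, made against the older annotation M4, where it was 0.06 per kilobase. There Tnfrsf1b had 2755, 2548 and 2784 counts, against 32187, 20788 and 34558 in M21. Lta had 904, 941 and 976, against 3603, 3934 and 4055. The M4 counts thus fell short by more for Tnfrsf1b than for Lta, and the cause was not tested. Tnfrsf13b exceeded Tnfsf13b by 3.71 ± 0.30, a ratio of 16.2, and exceeded Tnfsf13, which had at most 2 counts, by 5.88 ± 0.05. Tnfrsf12a exceeded Tnfsf12, which had 0 counts, by 2.88 ± 0.05.

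The ligand-high pairs were led by those of Ltbr with the lymphotoxins and of Tnfrsf11a, receptors with means under 1 TPM here. Receptor levels on other cells were not measured. On the log2(TPM + 1) scale, receptor minus ligand was -10.36 ± 0.58 for Ltbr and Ltb and -6.63 ± 0.59 for Ltbr and Lta (-12.34 and -8.59 with a pseudocount of 0.1). It was -5.25 ± 0.42 for Tnfrsf11a and Tnfsf11, where the ligand's mean TPM was 99.01 times the receptor's. It was -3.61 ± 0.15 for Cd40 and Cd40lg, a ligand excess of 15.0 times. These are pairs in which the T cell is known to carry the ligand. The difference was also -3.98 ± 0.33 for Tnfrsf14 and Lta, a ligand excess of 17.8 times, and -3.52 ± 0.35 for Tnfrsf10b and Tnfsf10, one of 19.1 times. It was -2.53 ± 0.12 for the decoy Tnfrsf23 and Tnfsf10, -2.74 ± 0.60 for Ltbr and Tnfsf14, and -2.01 ± 0.46 for Tnfrsf17 and Tnfsf13b.

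For CD30, Tnfrsf8 minus Tnfsf8 was -1.91 ± 0.16 (exact sign-flip permutation p = 0.25, n = 3), a ligand excess of 4.05 times. This pair differs from the pairs of OX40, GITR, CD27 and CD137, in which the receptor was the higher side. Tnfrsf1a minus Lta was -2.22 ± 0.19, while Tnfrsf1a minus Tnf was -0.48 ± 0.16. The M4 counts, taken per kilobase, gave the last difference the other sign, with Tnfrsf1a higher by 0.27. Thus TNF transcripts stood between those of its receptors, above Tnfrsf1a in TPM and under Tnfrsf1b.

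In 4 pairs the sides were not apart. Tnfrsf14 and Tnfsf14 differed by -0.09 ± 0.30, with a change of sign between libraries, and by 1.07 in the M4 counts. Tnfrsf13c and Tnfsf13b differed by -0.14 ± 0.94, and Tnfrsf13c ranged from 1.21 to 6.27 TPM. Tnfrsf22 minus Tnfsf10 was -0.24 ± 0.13, negative in all 3 libraries, but the authors' bounds overlapped in library 2. The pair of Tnfrsf17 and Tnfsf13 was at or near 0 on both sides.

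**Figure D3:**
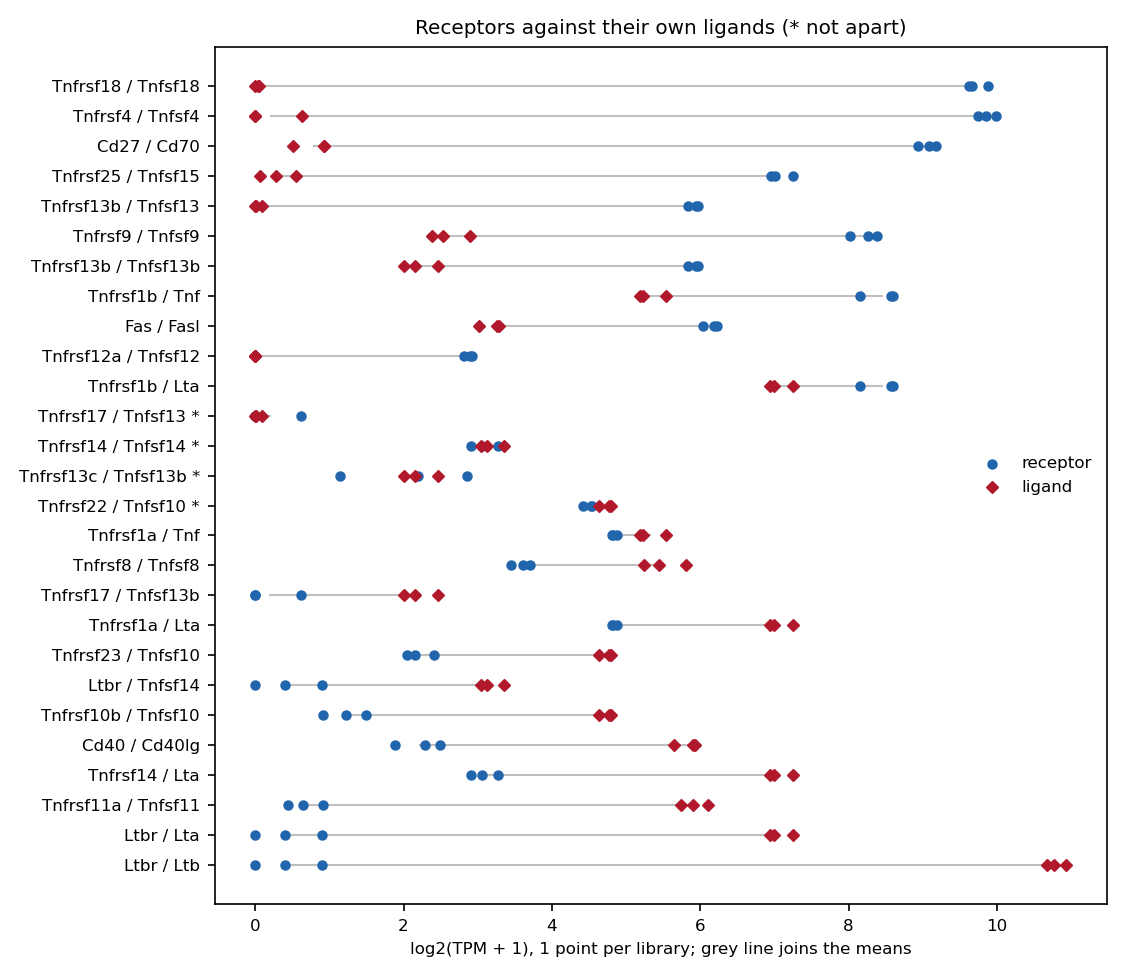
Receptors (circles) and their ligands (diamonds) in 27 pairs as log2(TPM + 1), with 1 point per library and a grey line between the means, ordered from the highest receptor excess to the highest ligand excess; an asterisk marks the 4 pairs not apart. Pairs of OX40, GITR and CD27 head the plot with ligands near 0, and pairs of Ltbr and RANK stand at the foot with receptors near 0.

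All 6 TRAFs were detected, with a sum of 669 ± 27.6 TPM. Traf1, which has no RING domain and is itself induced by NF-kB, stood at 396, 356 and 359 TPM and took 55.3% of the sum. Traf5, which binds OX40 and CD27 among others, stood at 114, 153 and 119.8 TPM. Traf2, the adaptor that brings the cellular inhibitors of apoptosis to the receptors, stood at 86.05, 90.9 and 72.8 TPM. These 3 held their order in every library. Traf3, which restrains the NF-kB-inducing kinase, stood at 33.6 ± 2.14 TPM, and Traf4 stood at 33.4 ± 4.63 TPM with an overlapping range. Traf6, which also serves the interleukin-1 and Toll-like receptors, stood at 15.2, 19.8 and 23.9 TPM.

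Most of the genes of the wider pathway were present as well. Of 51 other genes of the family and its signalling, 45 were detected, against 47.6% of protein-coding genes, with a median of 58.2 TPM. The 6 not detected were 5 family genes and Tifa, a TRAF6-binding adaptor with 0, 22 and 10 counts. Tnfrsf11b, the decoy receptor for RANK ligand, had 0 counts in all 3 libraries, and Edar, an ectodysplasin receptor, had 4, 0 and 9. On the list of 9 other genes around the family, Btla led at 59.1 ± 2.34 TPM. Traf7 at 58.2 ± 2.41 TPM and Relt at 26.6 ± 6.22 TPM followed. Btla, the inhibitory partner of HVEM, and Cd160, also on this list, are not themselves TNF superfamily genes.

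All 9 genes of the death branch were detected. Casp8, the initiator caspase, led at 181 ± 17.9 TPM, followed by its inhibitor Cflar at 105 ± 10.8 TPM and the adaptor Tradd at 71.6 ± 8.71 TPM. The adaptor Fadd and the necroptosis effector Mlkl were lowest, at 4.58 ± 0.375 and 4.24 ± 1.17 TPM. All 19 ubiquitin and kinase genes were detected too, led by Rbck1, a subunit of the linear ubiquitin ligase, at 242 ± 17.02 TPM, the kinase Ikbkb at 183 ± 6.14 TPM and Sharpin, of the same ligase as Rbck1, at 176 ± 17.8 TPM. Xiap and Tab2 were lowest, at 11.1 ± 1.96 and 13.0 ± 0.691 TPM.

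All 7 NF-kB genes were detected. The inhibitor Nfkbia led at 629 ± 31.7 TPM, above the subunits Rela at 151 ± 13.7 TPM and Nfkb2 at 93.8 ± 7.87 TPM. The subunits Rel and Nfkb1 were lowest, at 22.97 ± 1.82 and 55.9 ± 0.770 TPM. Of 5 genes named as TRAF interactors, Traf3ip3 stood at 451 ± 17.5 TPM and Traf3ip2 at 59.2 ± 3.24 TPM, while Traip stood at 3.25 ± 0.303 TPM. Both proteases that shed members of the family from the membrane were detected, Adam10 at 80.8 ± 7.60 TPM and Adam17 at 53.4 ± 1.81 TPM.

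Gene levels count all transcripts of a gene, including those with no full reading frame. Of 22 members with a mean of at least 20 TPM, the leading transcript was annotated as protein-coding in all 22, and protein-coding transcripts took at least 90% of TPM in 14. The share was under 80% in 5. For Traf1 it was 55.1% ± 0.914, with Traf1-201 leading at 40.0% ± 0.424 and the processed transcript Traf1-203 second at 14.3% ± 0.568. For Tnfrsf25 the share was 67.7% ± 1.57, for Tnfrsf18 69.1% ± 1.33, for Cd27 73.1% ± 1.55 and for Tnfrsf4 77.5% ± 2.50. Thus 4 of the 6 receptors at 100 TPM or more had 20% or more of their TPM in transcripts annotated as retained introns or processed transcripts. Tnfrsf1b differed from them, with 99.8% ± 0.199 in Tnfrsf1b-201, as did Tnfrsf9 with 99.9% ± 0.106 in protein-coding transcripts.

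For Fas, Fas-201 took 73.8% ± 2.19 and Fas-202 took 13.9% ± 1.45. Tnfrsf25 transcripts were spread over Tnfrsf25-202 at 37.3% ± 2.69, Tnfrsf25-201 at 30.5% ± 3.63 and the processed transcript Tnfrsf25-204 at 28.4% ± 1.77. Traf5 gave 40.5% ± 2.72 to Traf5-201 and 33.5% ± 1.33 to Traf5-202. Lta, Cd40lg, Tnfsf8 and Tnfsf11 have 1 annotated transcript each.

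Many members lie beside each other in the genome, and neighbours ranged from like levels to wide differences. With gaps of at most 200000 bp, 22 of the 46 genes fell into 9 clusters. On chromosome 17, Ltb, Tnf and Lta lie within 10913 bp in the major histocompatibility region, with no protein-coding gene between them, at means of 1783, 39.1 and 133.5 TPM. On chromosome 4, Tnfrsf4 (chr4:156013843-156016612) and Tnfrsf18 (chr4:156026164-156028895) lie 9552 bp apart on the plus strand and stood at 931 and 847 TPM. They were the only adjacent members that both exceeded 100 TPM.

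Some other neighbours differed widely in level. Tnfrsf1b and Tnfrsf8 lie 20267 bp apart on the minus strand of chromosome 4, at 351 and 11.1 TPM. On chromosome 6, Cd27, Ltbr and Tnfrsf1a lie within 129863 bp at 536, 0.397 and 27.7 TPM. Tnfsf15 and Tnfsf8 lie 86195 bp apart on chromosome 4, at 0.243 and 44.8 TPM. The ligands Tnfsf4 and Tnfsf18 lie 76245 bp apart on chromosome 1, and both were under 1 TPM in every library, as were Tnfsf13 and Tnfsf12 on chromosome 11. Tnfrsf26 and Tnfrsf22, 6084 bp apart on chromosome 7, were also at like levels, 17.8 and 21.6 TPM.

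**Figure D4:**
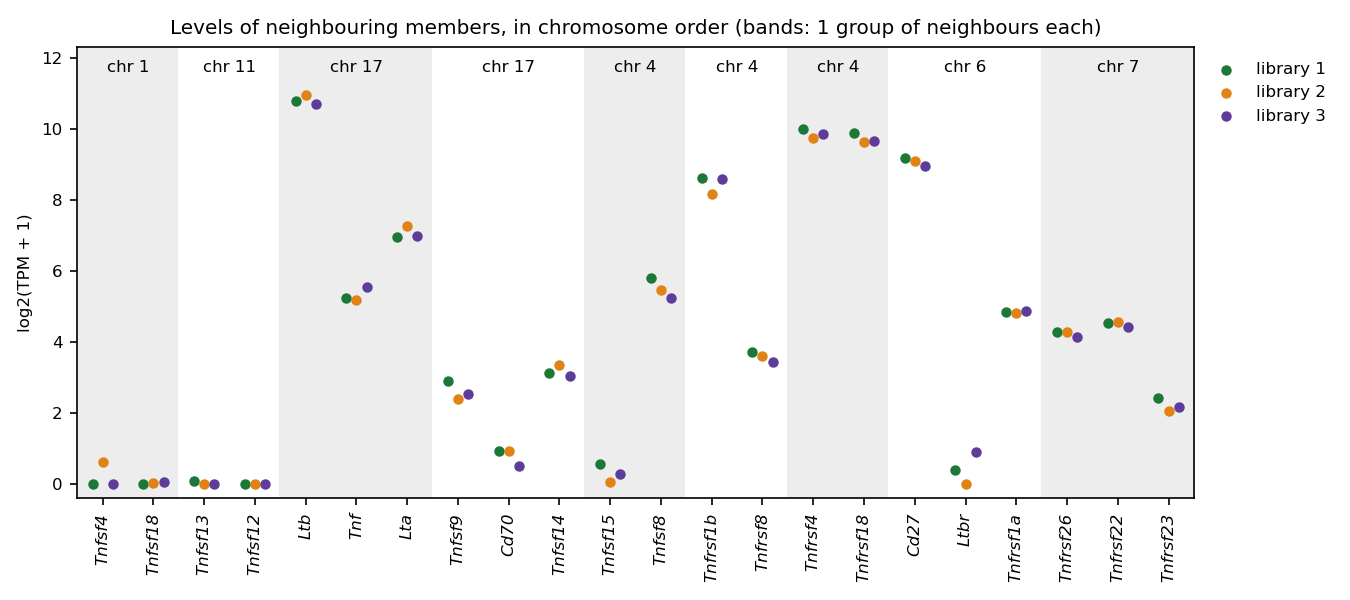
Levels of 22 members in 9 clusters of neighbouring genes, in chromosome order within each band, as log2(TPM + 1) with 1 point per library. Tnfrsf4 and Tnfrsf18 stand together at means of 931 and 847 TPM, while Ltb, Tnf and Lta, or Cd27, Ltbr and Tnfrsf1a, stand far apart within their bands.

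The libraries themselves were compared to see how far these levels carry over between technical replicates. A chi-square test asked whether counts differed by more than Poisson counting noise after TMM scaling with edgeR, on genes averaging 10 or more counts and with Benjamini-Hochberg adjustment at 0.05 over all genes tested. It compares these libraries and no conditions, and it takes reads as independent molecules. Of 40 members tested, 31 differed (77.5%), close to the 77.2% of all 18253 genes tested. By role these were 14 of 21 receptors, 11 of 13 ligands and 6 of 6 TRAFs. By depth, 5 of 7 members averaging 10 to 100 counts differed (68.7% of such genes), 5 of 9 from 100 to 1000 counts (79.2%) and 21 of 24 from 1000 counts up (84.8%). In the M4 counts, 18 of 38 members differed, against 52.1% of genes tested there. Leaving out 1 library gave 22 to 25 members (55.0% to 64.1% of those tested), and the share of all genes fell likewise, to between 49.1% and 60.9%.

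The differences were mostly small. Over members tested, the median ratio of the highest to the lowest library was 1.254, against 1.37 over all genes, and over those averaging 1000 or more counts it was 1.18, against 1.15. A ratio of at least 2 was found for 4 members, against 27.1% of genes tested. These were 3 of the 7 members of 10 to 100 counts (61.8% of such genes), 1 of the 9 of 100 to 1000 counts (12.7%) and none of the 24 above (0.475%). Of these, Tnfrsf13c had a ratio of 4.64 (95% exact interval 3.39 to 6.45), with 50 counts in library 1, 200 in library 2 and 163 in library 3. Tnfsf15 had a ratio of 9.78 (3.08 to 49.8), resting on 3 counts in library 2. Ltbr had a ratio of 12.4 between libraries 3 and 2, and Tnfrsf19 one of 6.04 between libraries 1 and 2, with 0 counts in library 2 taken as 3. The lower 95% limits of the counting error, at the 0 counts themselves, were 9.63 and 4.49. For both genes the authors' bounds on TPM overlapped between these libraries. Without library 1, 2 members had such a ratio, and Tnfrsf13c differed by a log2 ratio of 0.51 (0.20 to 0.82) between libraries 2 and 3.

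Markers of other cells moved beside some of these genes. The B cell gene Fcrla had 19, 63 and 36 counts and Ebf1 had 65, 147 and 87 counts, lowest in library 1 as Tnfrsf13c was, whereas Cd79b had 781, 713 and 795 counts and Cr2 had 316, 128 and 113 counts. Over the 10 B cell markers, 9 differed between libraries, 4 of them highest in library 2. Beside Ltbr, which had 43 counts in library 3, the epithelial markers summed to 44.5 TPM there and to 35.8 and 26.4 TPM in libraries 1 and 2. Most of this sum was Epcam, at 33.1, 25.9 and 37.4 TPM in libraries 1, 2 and 3. The other epithelial markers, Krt8 with 5, 5.8 and 90.1 counts and Krt18 with 80, 9 and 172 counts, moved more. All 5 salivary gland genes were highest in library 3. Of the 5 myeloid markers tested, 3 were highest in library 3, among them Csf1r with 7, 3 and 42.4 counts. Itgam, with 32, 1 and 17 counts, was highest in library 1, and Tyrobp, with 10, 25 and 25 counts, was highest in library 2 after scaling. The 5 stromal and endothelial markers summed to 2.64, 0.78 and 0.90 TPM. The part of these cells in Tnfrsf13c and Ltbr was not tested.

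Of the 40 members tested, 17 (42.5%) differed and were lowest in library 2, against 29.9% of all genes tested, among them Tnfrsf1b, Tnfrsf4, Tnfrsf9, Tnfrsf18 and Traf1. In the M4 counts after TMM scaling, none of these named genes was lowest in library 2. Tnfrsf1b had 2755, 2548 and 2784 M4 counts, at scaling factors of 1.026, 0.939 and 1.037 for libraries 1, 2 and 3. Its M21 counts were 32187, 20788 and 34558. The M4 counts of all these named genes were far under their M21 counts, so they cannot decide whether the library 2 difference holds. In the M21 counts, Tnfrsf1b was lower in library 2 than in library 1 by a log2 ratio of 0.42 (95% exact interval 0.39 to 0.44). Its log2 ratio of library 2 to library 3 was -0.52 (-0.54 to -0.49). Another 11 members (27.5%) were highest in library 2 in the M21 counts, close to the 29.6% of all genes tested, among them Ltb, Lta, Tnfsf11, Tnfrsf25 and Traf5. Members highest in library 1 also numbered 11, against 23.8% of genes, and 9 were highest in library 3, against 23.7%. For Tnfsf11 the log2 ratio of library 1 to library 2 was -0.39 (-0.47 to -0.32). Traf6 followed neither pattern: it was highest in library 3 and lowest in library 1, with a ratio of 1.63 (1.54 to 1.72), the widest among members with a mean count of at least 1000.

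Other members did not differ between the libraries by this test, which does not show that they were equal. These 9 were Tnfrsf8, Tnfrsf12a, Tnfrsf13b, Tnfrsf23, Tnfrsf26, Cd40, Fas, Fasl and Cd70. Tnfrsf13b had a ratio of 1.03 (0.976 to 1.08) at a mean of 3149 counts, and Fas one of 1.07 (0.999 to 1.14) at a mean of 1961 counts. For 6 members the counts were too low to test: Tnfrsf17, Tnfrsf21, Tnfsf4, Tnfsf12, Tnfsf13 and Tnfsf18.

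**Figure D5:**
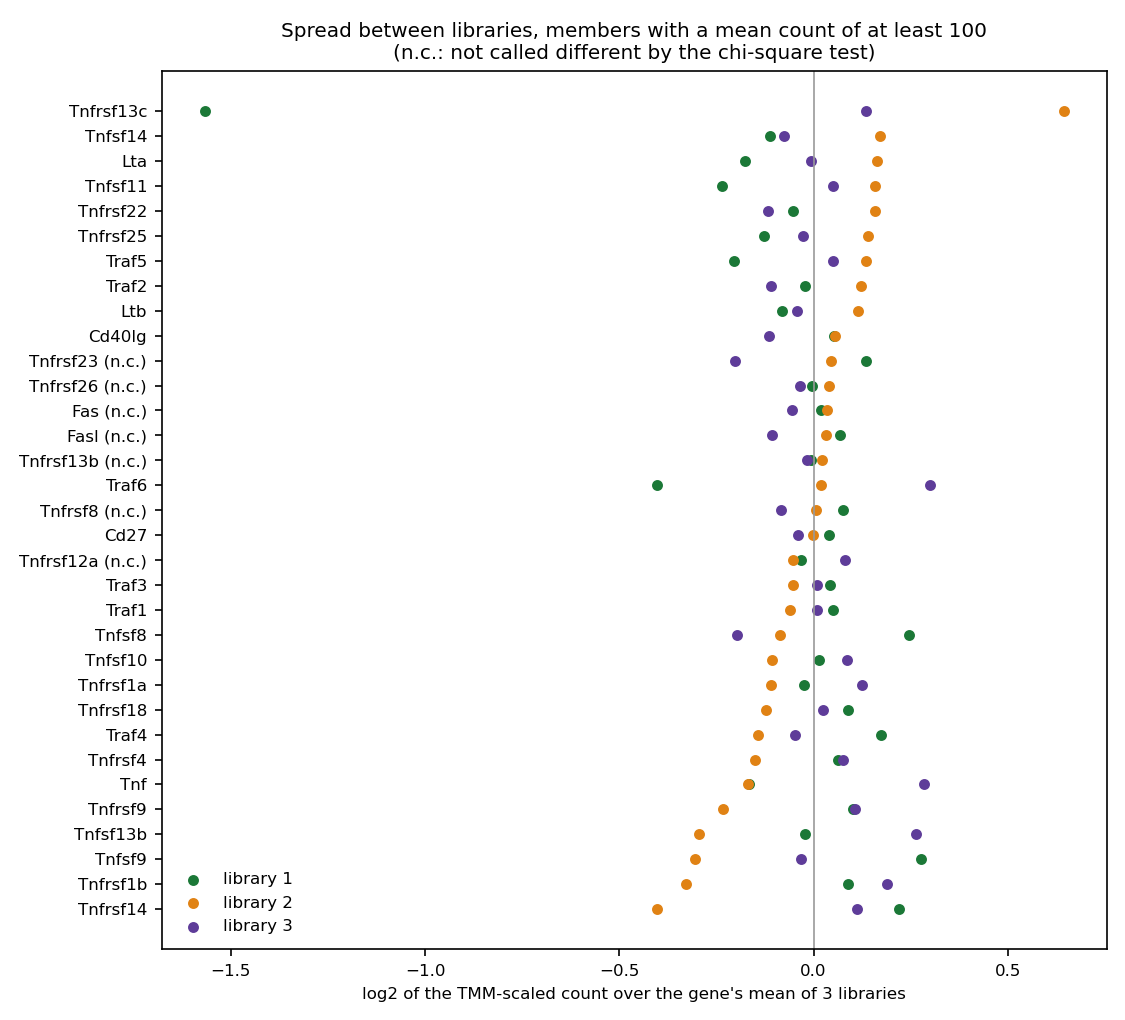
Spread between libraries for members with a mean count of at least 100, as the log2 of each library's TMM-scaled count over the mean of the 3 libraries, ordered by library 2. Tnfrsf13c spans the widest range, with library 1 far to the left, library 2 stands to the left for Tnfrsf1b, Tnfrsf4 and Tnfrsf9 and to the right for Lta, Tnfsf11 and Traf5, and genes marked n.c. did not differ by the chi-square test.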

How the data were processed

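Polyadenylated RNA of 3 libraries of 1 group was sequenced, at the gene count totals given above. The deposited M21 gene tables hold expected counts, TPM and FPKM, made by the authors against GENCODE M21 on mm10, per the file headers and the list of files. The deposited bounds on TPM were treated as a signal, and their level is not stated. The deposited transcript tables give the percent of a gene's TPM per transcript, per the file headers. Further deposited tables without a header hold whole-number counts per gene against annotation M4. The aligner, the counting program, strand use and handling of duplicates are not given in the sources used here. Because TPM shares 1 total, the salivary gland genes of library 3 lower every other TPM in it.

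The members, the pairs and the lists were chosen with earlier results of these data known. The rule for named genes covered all 46 members, the 3 highest and 2 lowest genes by mean TPM of each pathway list, B cell and myeloid markers beside the receptors of such cells, and the leading and second transcript of members at 20 TPM or more. Which markers, transcripts and promoters are printed within it was chosen after their values were seen. The epithelial markers were named outside this rule, also after their values were seen.

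All M21 symbols and coordinates came from the M21 annotation, and all 46 members had a row in both kinds of table. Expected counts were rounded, and transfer RNA and spike-in rows (0.170% of counts in libraries 1 and 2, 0.218% in library 3) were left out. Counts were scaled by TMM (edgeR 4.0.16, R 4.3.3), with size factors of DESeq2 1.42.0 and total counts as alternatives. The chi-square test was run on simulated counts drawn with the Poisson noise that it assumes. Such counts cannot show how it behaves where libraries vary by more than counting noise. A pseudocount of 1 was used for log2 TPM. Intervals of ratios are exact 95% binomial intervals and, like the limit of 3 counts, cover counting error only. Scripts used scipy 1.17.1, pandas 2.3.3 and numpy 2.4.6 on Python 3.11.15. The 23 member transcripts that start at a promoter window's start all had the window's letters in their first 20 bases. Protein features were not computed, since no protein sequences were used here.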

Additional observations from a re-analysis of the deposited data

Results flagged for a closer look

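The read-through gene Tnfsfm13, which no comparison above uses and which overlaps Tnfsf12 and Tnfsf13 on the same strand of chromosome 11, had an expected count of 10.68 in library 2 and 0 in libraries 1 and 3. In library 2 this was above the 3 counts that a count of 0 allows, while Tnfsf12 had 0 counts and Tnfsf13 had 0.32.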

How the results depend on the processing

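No paired analysis was possible because the study has 1 group. Between 29 and 35 of the 46 genes were detected at a TPM minimum of 5 or 0.5, with posterior mean TPM and without each library. Of the 27 pairs, 23 or 24 were apart under every alternative run: a pseudocount of 0.1, posterior mean TPM, FPKM, M4 counts per kilobase, counts with no length correction (added after the data had been seen), and without each library. The pairs apart were not the same ones throughout: Tnfrsf1b minus Lta was 0.06 in the M4 counts and not apart there. The sign turned in the M4 counts for 2 pairs: Tnfrsf1a minus Tnf was 0.27 and Tnfrsf14 minus Tnfsf14 was 1.07. The cause was not tested. Members that differed between libraries numbered 18 in the M4 counts, which total 8945992 to 9904722 a library, and 22 to 25 without 1 library. Those with a ratio of at least 2 numbered 2 to 3 without 1 library, 1 at a mean count of at least 50, where fewer genes are tested, and 6 with no filter. The 12 members not detected had at most 92.9 counts in any library. For these genes, 3 counts in a library came to between 0.0362 TPM (Tnfrsf11a) and 0.202 TPM (Tnfrsf17) at most, under the minimum of 1 TPM. Whether depth or level kept each under 1 TPM was not tested. A pseudocount of 0.1 moved pairs with a side near 0 TPM by more than 1.5 times as a fold, without a change of call. Other mice were not measured, so no level here carries an error between animals.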

Other observations

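The M4 counts were far under the M21 counts for the abundant members Ltb and Tnfrsf1b. Ltb had 37707, 37252 and 38723 expected counts in the M21 tables but 1895, 1898 and 1907 in the M4 tables, and Tnfrsf1b had 2755, 2548 and 2784 there against 32187, 20788 and 34558. For Tnfrsf14 the tables were close, with 171, 104 and 159 counts in M4 and 182, 102 and 169 expected counts in M21. Tnfrsf9 exceeded Tnfsf9 by 2.94 on the log2 scale in the M4 counts per kilobase and by 5.62 in TPM, whereas Tnfrsf25 exceeded Tnfsf15 by 6.96 and 6.77. What limits the M4 counts was not tested.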
